A study of Mus musculus with 8 samples.

Results

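The genes described here are 10 mouse genes for surface proteins of the B7, nectin and related immunoglobulin families, out of 49671 genes counted. They are Cd276, Cd274, Pdcd1lg2, Cd80 and Vtcn1 of the B7 family, Pvr, Nectin1, Nectin2 and Nectin3 of the nectin and nectin-like family, and Cd47. They were taken by name from the count files, with Ensembl IDs matched to GRCm38 symbols, and all 10 were found. They were chosen by measured values, the log2 fold changes of Cd276 and Pvr between BMPR2 DELX and ROSA in these same libraries, so the differences of the 10 genes between the groups are a description and no p is given for them. The samples are polyadenylated RNA from mouse cells labelled adipocytes, with 4 libraries labelled BMPR2 DELX, from mice mutant in the BMP type II receptor gene, and 4 labelled ROSA, which serve as its control. The labels state neither the structure of the mutant allele, any promoter or Cre behind it, nor the age of the mice. Nor do they say whether each library is its own animal, and p-values then reflect only how libraries vary, which may be technical.

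B7 proteins are ligands that tune T cell activation, either by costimulation through CD28 or by inhibition through receptors such as CTLA-4 and PD-1. Nectins and nectin-like proteins hold neighbouring cells together at adherens junctions, independently of calcium, and several of them are also ligands of the lymphocyte receptors TIGIT, DNAM-1 and CD96. CD47 binds SIRP-alpha on phagocytes and restrains engulfment. Stromal cells such as fibroblasts carry many of these ligands, while most of the receptors are made by leukocytes.

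The libraries held 28799445 to 43684785 counts assigned to genes. Levels are counts scaled by trimmed mean of M values (TMM) factors, called CPM below (counts per 1000000), with the SD over 4 libraries. Each difference is a log2 fold change, BMPR2 DELX over ROSA, given with a standard error (SE) and n = 4 per group, and a gene is called at an edgeR quasi-likelihood adjusted p below 0.05. Of the 9 adipocyte marker genes examined, 7 stayed under 1 CPM in all libraries, among them Adipoq, Plin1 and Lep. The others were Pparg and Fabp4. Pparg averaged 21.83 CPM in BMPR2 DELX, against 16.09 CPM in ROSA. Fabp4 averaged 49.9 CPM in BMPR2 DELX, against 61.03 CPM in ROSA. Levels of the fibroblast markers ranged widely. Col1a1, a fibrillar collagen of fibroblasts, averaged 6106 CPM in BMPR2 DELX, against 5154 CPM in ROSA. The lowest were Dcn and Lum. Dcn averaged 21.02 CPM in BMPR2 DELX, against 13.94 CPM in ROSA. Lum, which was not tested, averaged 0.5564 CPM in BMPR2 DELX, against 0.1518 CPM in ROSA. Of 15 leukocyte markers, 12 stayed under 1 CPM in all libraries, and the summed level of all 15 was 36.9 to 66.4 CPM in BMPR2 DELX and 24.9 to 36.1 CPM in ROSA, most of it Csf1r, Lyz2 and Cd68. The summed level of 8 endothelial markers ran from 302 to 1331 CPM in BMPR2 DELX and from 561 to 1301 CPM in ROSA. That of 8 epithelial markers ran from 22.8 to 55.5 CPM in BMPR2 DELX and from 32.3 to 46.9 CPM in ROSA. Of the 6 epithelial markers tested, 5 were higher in BMPR2 DELX and 1, Krt19, was lower, with a median log2 fold change of 2.16. Krt19 averaged 12.1 CPM in BMPR2 DELX, against 26.4 CPM in ROSA. Krt8 averaged 5.17 CPM in BMPR2 DELX, unevenly over its libraries, against 0.587 CPM in ROSA. By edgeR, Cd68 among the leukocyte markers (adjusted p 0.024), Pax8 among the epithelial ones (0.047) and the collagen gene Col3a1 among the fibroblast ones (0.0013) were called higher in BMPR2 DELX. The part of such cells in the results below was not tested. In such bulk samples a smaller number of cells of a type and less RNA per cell cannot be told apart. Bmpr2 averaged 211 ± 17.6 CPM in BMPR2 DELX, against 197 ± 17.05 CPM in ROSA, and a count over a whole gene cannot check a change inside its transcript.

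Of the 10 genes, 8 had enough counts to be tested. Pdcd1lg2 (ENSMUSG00000016498, chromosome 19, 29410919 to 29471161), the gene for PD-L2, had 2 counts in BMPR2 DELX 2 and 0 in the other 7 libraries. Vtcn1 (ENSMUSG00000051076, chromosome 3, 100825459 to 100896922), the gene for the inhibitory B7-H4, had 0, 1, 3 and 0 counts in BMPR2 DELX 1 to 4, against 2, 0, 0 and 2 in ROSA 1 to 4. Where no read was counted, a level of up to 3 counts remains possible from counting error alone, or 0.067 to 0.0998 CPM here, so no fold is given for this pair.

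Per length of annotated exons, Nectin2, Nectin1 and Pvr stood highest and Cd274 lowest among the 8 tested genes. Nectin2 had 44.8 ± 3.83 CPM per kb in BMPR2 DELX and 40.6 ± 4.41 CPM per kb in ROSA. Pvr had 27.35 ± 1.53 CPM per kb in BMPR2 DELX and 47.6 ± 3.98 CPM per kb in ROSA, so it ranked 3 of the 10 genes in BMPR2 DELX and 1 in ROSA, where its range overlapped that of Nectin2. Nectin1 had 27.8 ± 5.17 CPM per kb in BMPR2 DELX and 28.75 ± 3.60 CPM per kb in ROSA. Its mean was above that of Pvr in BMPR2 DELX, with overlapping ranges, and below it in ROSA. The level of Pvr exceeded that of 88.7% of all tested genes in BMPR2 DELX and of 93.5% in ROSA.

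Cd276 came next in both groups, with 22.1 ± 0.727 CPM per kb in BMPR2 DELX and 11.8 ± 0.579 CPM per kb in ROSA. Cd47 stood at 10.1 ± 0.719 CPM per kb in BMPR2 DELX and 9.14 ± 0.982 CPM per kb in ROSA. Cd80 stood at 8.48 ± 1.76 CPM per kb in BMPR2 DELX and 6.86 ± 1.24 CPM per kb in ROSA, and within each group its range overlapped that of Cd47. Nectin3 had 3.51 ± 0.434 CPM per kb in BMPR2 DELX and 5.10 ± 0.959 CPM per kb in ROSA, where its range overlapped that of Cd80. Cd274, at 1.17 ± 0.196 CPM per kb in BMPR2 DELX and 1.395 ± 0.292 CPM per kb in ROSA, exceeded only 27.4% of the tested genes in BMPR2 DELX and 30.5% in ROSA. Merged exons of all annotated transcripts were used as the length, from 3.494 kb for Nectin2 to 12.747 kb for Nectin3. A gene whose long transcripts are little used is thus given too low a level. For Pvr the length was 6.122 kb, against 2905 bases in its longest annotated transcript, so its rank is uncertain.

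**Figure D1:**
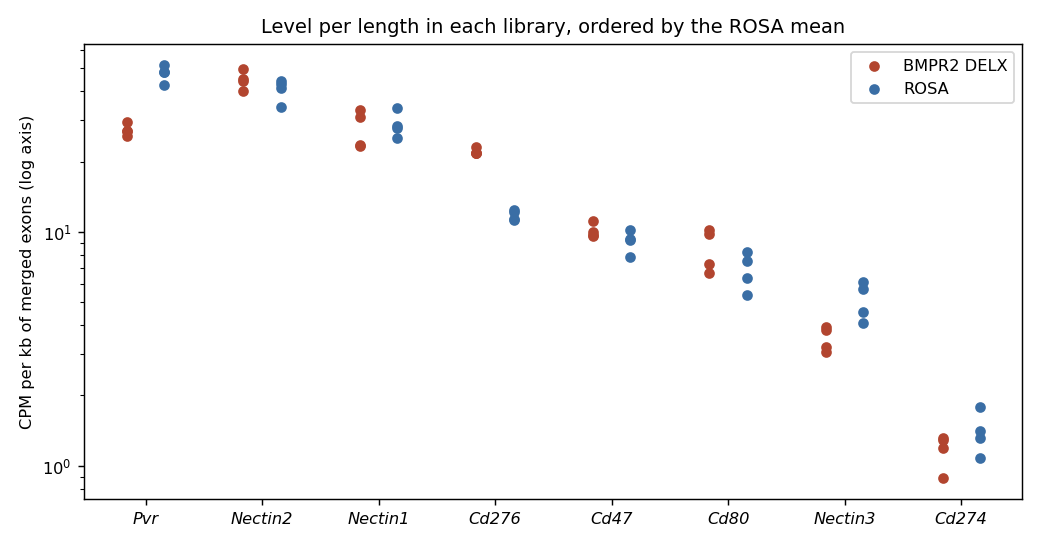
Level of the 8 tested genes in CPM per kb of merged exons on a log axis, with 1 point per library and BMPR2 DELX left of ROSA, ordered by the ROSA mean. Pvr lies at 25.8 to 29.4 in BMPR2 DELX and 42.3 to 51.9 in ROSA, and Cd274 lies under 1.79 in every library.

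Of the 8 tested genes, 1 was called higher and 2 were called lower in BMPR2 DELX, against 9.10% of all 14887 genes tested, of which 3.96% were higher and 5.15% lower. With upper-quartile factors 734 of all genes were higher and 606 lower, against 589 and 766 with TMM. The same 3 of the 8 genes, Cd276, Pvr and Nectin3, had no overlap between the libraries of the groups, as did 18.0% of all genes. Since these differences chose the genes, nothing is read from the counts. The median log2 fold change of the 8 genes was 0.05, and that of all genes was 0.005.

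Cd276 (ENSMUSG00000035914, chromosome 9, 58524298 to 58555437, minus strand) encodes B7-H3, a checkpoint ligand of stromal and tumour cells that dampens T cell responses. It had 79.2, 84.8, 79.7 and 79.5 CPM in BMPR2 DELX 1 to 4, against 41.6, 45.5, 41.2 and 44.5 CPM in ROSA 1 to 4. All BMPR2 DELX libraries stood well above all ROSA libraries, with a coefficient of variation of 3.29% within BMPR2 DELX and 4.90% within ROSA. The log2 fold change was 0.90 ± 0.06 (SE), a 1.87-fold higher level in BMPR2 DELX, and it stayed between 0.88 and 0.94 when any single library was left out. Exons of Gm10657 on the other strand overlap 416 bases of its exons, and 2.16% of its stranded counts lay on that strand. With the unstranded column and the other alternatives, Cd276 was called each time, at 0.90 to 0.94. These refits use the libraries that chose the gene, so the calls are no separate evidence.

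Pvr (ENSMUSG00000040511, chromosome 7, 19903578 to 19921160, minus strand), the poliovirus receptor homolog also called CD155, is a nectin-like protein that binds Nectin3 on neighbouring cells, promotes cell movement and engages TIGIT, DNAM-1 and CD96. It had 158, 166, 180.2 and 166 CPM in BMPR2 DELX 1 to 4, against 296, 318, 294 and 259 CPM in ROSA 1 to 4. The groups were far apart, and the lowest ROSA library, ROSA 4, was above the highest BMPR2 DELX library, BMPR2 DELX 3. Its log2 fold change was -0.80 ± 0.08 (SE), 0.574 of the ROSA level, and ran from -0.85 to -0.75 without any single library. No 50-base stretch of its longest annotated transcript occurs in a transcript of another gene, Nectin2 nearby on chromosome 7 included. That transcript has 2905 bases, against 6122 bases of merged exons, and exon sequence outside it was not searched.

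**Figure D2:**
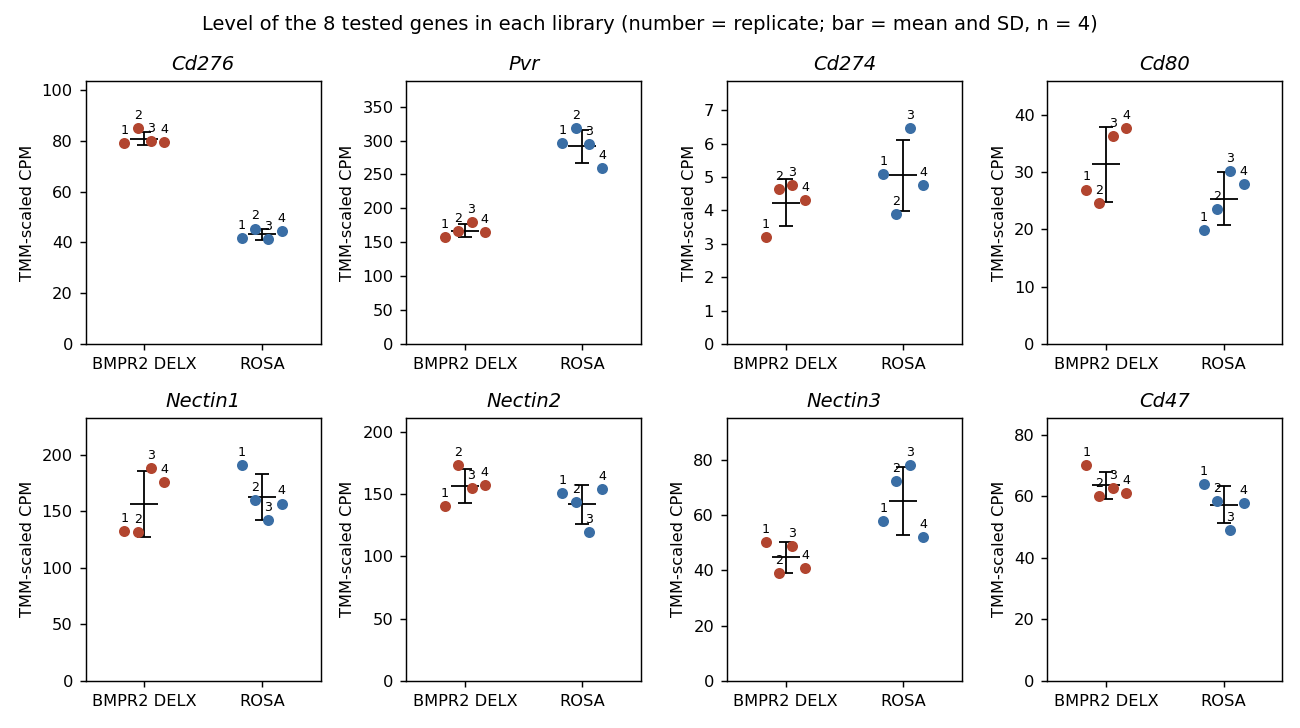
TMM-scaled CPM of the 8 tested genes in each library, with BMPR2 DELX left of ROSA, the replicate number beside each point and a bar for the mean and SD (n = 4). Cd276 lies at 79.2 to 84.8 in BMPR2 DELX and 41.2 to 45.5 in ROSA, Pvr at 158 to 180.2 in BMPR2 DELX and 259 to 318 in ROSA, and the groups of Cd274, Cd80, Nectin1, Nectin2 and Cd47 overlap.

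Of the other B7 genes chosen, Cd274 and Cd80 were tested and neither was called. Icosl and Vsir, of the same family, were tested among the other checkpoint ligands below and were not called either. Both were higher in BMPR2 DELX with no overlap of the groups. Icosl averaged 0.762 CPM in BMPR2 DELX, against 0.459 CPM in ROSA. Vsir averaged 31.6 CPM in BMPR2 DELX, against 19.3 CPM in ROSA. Cd274 (ENSMUSG00000016496, chromosome 19, 29367455 to 29388095), the gene for the PD-1 ligand PD-L1, had 3.21, 4.65, 4.76 and 4.31 CPM in BMPR2 DELX 1 to 4, against 5.10, 3.91, 6.45 and 4.76 CPM in ROSA 1 to 4. The groups overlapped, and these values rest on 98 to 194 counts per library. The log2 fold change was -0.25 ± 0.18 (SE). Of the 50-base stretches of its transcript, 1.68% also occur in transcripts of other genes.

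Cd80 (ENSMUSG00000075122, chromosome 16, 38455561 to 38496335) encodes B7-1, the ligand of CD28 and CTLA-4 that also binds PD-L1. It had 27.0, 24.7, 36.3 and 37.6 CPM in BMPR2 DELX 1 to 4, against 19.9, 23.6, 30.3 and 27.9 CPM in ROSA 1 to 4. The groups overlapped, with the 2 highest values in BMPR2 DELX 3 and BMPR2 DELX 4, and the log2 fold change was 0.31 ± 0.17 (SE). Per length, Cd276 over Cd80 was 2.14 to 3.48 in BMPR2 DELX and 1.38 to 2.12 in ROSA, just short of overlap. Cd276 was chosen by its group difference, so nothing is read from this split. Cd86, which encodes the partner ligand B7-2 and marks antigen-presenting cells, averaged 0.00734 CPM in BMPR2 DELX, against 0 CPM in ROSA. The level was also summed per length over the 5 B7 genes chosen. This sum was 31.8 ± 1.55 CPM per kb in BMPR2 DELX and 20.1 ± 1.41 CPM per kb in ROSA. Cd276 made up 65.7% to 74.4% of it in BMPR2 DELX and 53.1% to 62.6% in ROSA. The sum leaves out Vsir, Icosl and Cd86, so the share of Cd276 in the whole B7 family was not measured.

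Among the nectins, Nectin3 (ENSMUSG00000022656, chromosome 16, 46387706 to 46498525, minus strand), the adhesion partner of Pvr, Nectin1 and Nectin2, was the 1 nectin called, and it was lower in BMPR2 DELX. It had 50.1, 39.0, 48.7 and 40.9 CPM in BMPR2 DELX 1 to 4, against 57.8, 72.4, 78.1 and 51.9 CPM in ROSA 1 to 4. The groups were separated only narrowly, between BMPR2 DELX 1 and ROSA 4, and the ROSA libraries varied more. The log2 fold change was -0.54 ± 0.14 (SE). The call was lost in 7 of the 8 fits without 1 library and kept only without ROSA 4, with log2 fold changes from -0.64 to -0.44.

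Nectin1 (ENSMUSG00000032012, chromosome 9, 43743984 to 43807461), a junction protein and herpesvirus entry receptor, had 132.5, 131.5, 188 and 175.5 CPM in BMPR2 DELX 1 to 4, against 191, 160.1, 142 and 157 CPM in ROSA 1 to 4. BMPR2 DELX 3 and BMPR2 DELX 4 stood with ROSA 1 at the high end, and the log2 fold change of -0.05 ± 0.14 (SE) was not called and changed sign without BMPR2 DELX 1, BMPR2 DELX 2 or ROSA 1. Nectin2 (ENSMUSG00000062300, chromosome 7, 19716644 to 19750483, minus strand), the other nectin ligand of DNAM-1, had 140.5, 173, 155 and 158 CPM in BMPR2 DELX 1 to 4, against 150.5, 143, 119.6 and 154 CPM in ROSA 1 to 4. Its groups overlapped, and the log2 fold change of 0.14 ± 0.09 (SE) was not called.

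Pvr and Nectin2 are alternative ligands of DNAM-1, and their ratio within a library does not depend on the scaling. Per length, Pvr over Nectin2 was 0.641, 0.547, 0.665 and 0.600 in BMPR2 DELX 1 to 4, against 1.12, 1.26, 1.40 and 0.961 in ROSA 1 to 4. The ratio was thus under 1 in each BMPR2 DELX library and in ROSA 4, and above 1 in ROSA 1 to 3. Whether a ratio is under 1 depends on the lengths used, 6.122 kb for Pvr and 3.494 kb for Nectin2. Their longest annotated transcripts have only 2905 and 2735 bases, so which gene stands higher is uncertain. The relative distance between the groups does not depend on the lengths, and Pvr was chosen by its group difference. Nectin3 over Nectin1 was 0.168, 0.132, 0.115 and 0.103 in BMPR2 DELX 1 to 4, against 0.134, 0.201, 0.243 and 0.147 in ROSA 1 to 4, and these ranges overlapped. Summed per length over Pvr and the 3 nectins, the level was 103 ± 7.41 CPM per kb in BMPR2 DELX and 122 ± 7.52 CPM per kb in ROSA, with Pvr at 25.4% to 27.6% of the sum in BMPR2 DELX and 35.8% to 42.3% in ROSA.

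Cd47 (ENSMUSG00000055447, chromosome 16, 49800533 to 49915010), the ligand of SIRP-alpha and a receptor of thrombospondins, had 70.2, 60.3, 62.7 and 61.1 CPM in BMPR2 DELX 1 to 4, against 64.0, 58.6, 49.1 and 57.7 CPM in ROSA 1 to 4. The groups overlapped through ROSA 1, and the log2 fold change of 0.15 ± 0.09 (SE) was not called. Of the 50-base stretches of its longest transcript, 0.769% also occur in transcripts of other genes.

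**Figure D3:**
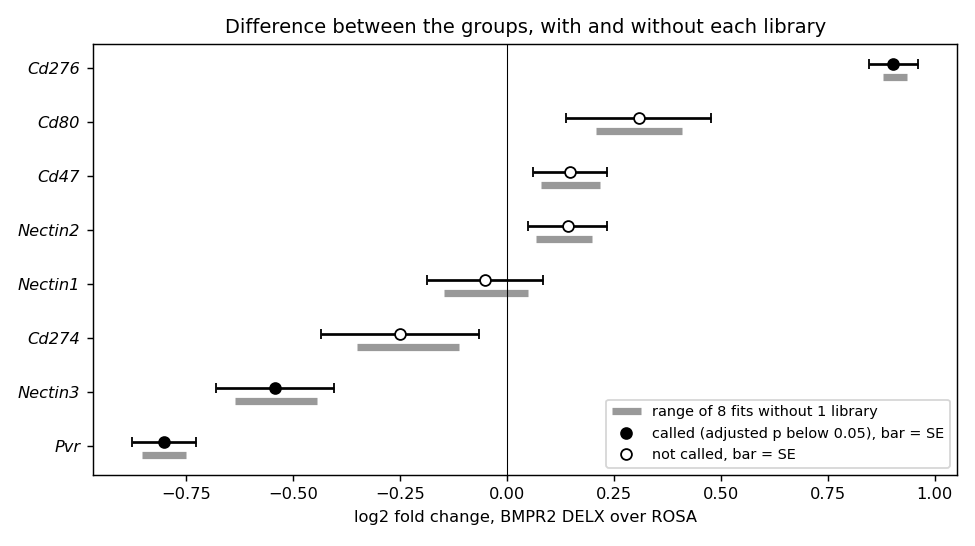
Log2 fold change of BMPR2 DELX over ROSA for the 8 tested genes, with the SE as a bar, filled points for called genes and a grey bar for the range of 8 fits that each left out 1 library. Cd276 stays at 0.88 to 0.94 and Pvr at -0.85 to -0.75, and the grey bar of Nectin1 crosses 0.

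The start regions were compared as a feature that the choice of genes did not use. RefSeq windows of GRCm38.p6, from 250 bases before to 50 bases after the annotated start, were found for 8 of the 10 genes, not for Pvr or Nectin1. The GC box GGGCGG, searched on both strands, occurred in the windows of Cd276 (4 times), Nectin3 (5), Nectin2 (3), Cd47 (3) and Cd274 (1), and in 35.7% of all 32851 windows. The windows of Cd80, Pdcd1lg2 and Vtcn1 held none. TATAAA was found in the Cd80 window only among these (13.6% of all windows), and TGANTCA, the AP-1 letters, in those of Cd80 and Vtcn1 (7.81%). An interferon response motif of 2 GAAA blocks set 2 bases apart (3.44% of all windows), TTCNNNGAA (8.30%), GGCGCC (11.9%) and CACGTG (7.15%) were in none of the 8 genes' windows. A match describes these letters alone.

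3 windows are shown, for Nectin3, the called gene with the most GC boxes among them, for the interferon-inducible Cd274, and for Cd80, whose window has no GC box, all 5′ to 3′ on the strand of the gene with the searched motifs in capitals. The Nectin3 window is chr16:46496918-46497217 on the minus strand, with 73.7% G and C. The Cd274 window is chr19:29367188-29367487 and the Cd80 window chr16:38458683-38458982, both on the plus strand, with 52.7% and 49.7% G and C. The window of Cd276 has 78.3% G and C and is not shown, since its 250 bases before the RefSeq start lie inside a GENCODE exon of the gene.
Nectin3: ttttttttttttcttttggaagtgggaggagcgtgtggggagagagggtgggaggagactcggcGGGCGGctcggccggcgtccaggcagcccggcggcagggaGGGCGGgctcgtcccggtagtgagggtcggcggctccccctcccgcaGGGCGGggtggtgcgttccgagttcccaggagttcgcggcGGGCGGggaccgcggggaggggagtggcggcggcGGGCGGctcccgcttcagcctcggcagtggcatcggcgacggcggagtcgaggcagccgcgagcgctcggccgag
Cd274: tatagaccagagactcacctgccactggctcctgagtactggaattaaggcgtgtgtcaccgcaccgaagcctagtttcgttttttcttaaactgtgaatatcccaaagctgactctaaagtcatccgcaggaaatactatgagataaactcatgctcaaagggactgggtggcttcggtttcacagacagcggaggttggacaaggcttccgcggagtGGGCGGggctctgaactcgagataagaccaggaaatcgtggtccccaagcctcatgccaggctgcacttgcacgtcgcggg
Cd80: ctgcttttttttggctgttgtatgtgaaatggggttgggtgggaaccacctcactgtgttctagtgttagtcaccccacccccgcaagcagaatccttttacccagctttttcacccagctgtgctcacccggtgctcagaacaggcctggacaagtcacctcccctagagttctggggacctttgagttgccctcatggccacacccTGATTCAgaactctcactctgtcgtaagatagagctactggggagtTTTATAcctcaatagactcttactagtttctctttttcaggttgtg

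The receptors, partners and regulators of these proteins were followed in 8 lists with 88 genes, of which 85 were found and 68 tested. Of the 68, 3 were called higher, 7 were called lower and 58 did not pass, which is 14.7% against 9.10% of all genes, and their median log2 fold change was -0.12 against 0.005. The lists were chosen with earlier results of these data known, so nothing is read from these shares. Without BMPR2 DELX 2, ROSA 1, ROSA 2 or ROSA 3 the count was 6 in each case, or 8.82%. The share of all genes in these 4 fits was 4.36%, 4.17%, 3.16% and 6.55%. Without both ROSA 1 and ROSA 2, an alternative chosen after seeing the data, the count was 1, or 1.45%, against 1.11% of all genes. Adjusted p-values given for these partner genes come from edgeR (quasi-likelihood, Benjamini-Hochberg over all genes tested).

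The list of CD47 partners and phagocytosis signals had 2 genes higher, 2 lower and 4 not called of 8, with a median of -0.18. Sirpa, which encodes the CD47 receptor SIRP-alpha, had 55.4, 59.5, 66.8 and 65.05 CPM in BMPR2 DELX 1 to 4, against 38.0, 38.5, 40.6 and 39.2 CPM in ROSA 1 to 4. It rose by 0.66 ± 0.07 (SE, adjusted p 0.0018) with no overlap of the groups, and it was called in each of the 8 fits without 1 library and under each of the 9 other alternatives. Csf1r, Lyz2 and Cd68, genes of the phagocytes that carry SIRP-alpha, averaged 29.05, 11.5 and 6.46 CPM in BMPR2 DELX, against 22.03, 4.06 and 3.92 CPM in ROSA. The leukocyte markers C1qa, C1qb, C1qc and Adgre1, on few counts, averaged 0.370, 0.2055, 0.399 and 0.218 CPM in BMPR2 DELX. In ROSA they averaged 0.0749, 0.0205, 0.0933 and 0.0645 CPM. Itgax, Ncr1 and the pan-leukocyte gene Ptprc were lower in BMPR2 DELX, Ptprc at 0.246 CPM, against 0.374 CPM in ROSA. The part of these cells in the level of Sirpa was not tested.

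Thrombospondins are matrix ligands of CD47, and of those listed Thbs2 rose. Thbs2 had 912 ± 164 CPM in BMPR2 DELX, against 444 ± 90.9 CPM in ROSA, a log2 fold change of 1.04 ± 0.17 (SE, adjusted p 0.0091), while Thbs1 had 9690 ± 1439 CPM in BMPR2 DELX, against 11740 ± 529 CPM in ROSA, a log2 fold change of -0.28 ± 0.11 (SE, adjusted p 0.13). Itgav, the integrin alphaV chain that pairs with Pvr at the moving cell edge, fell by 0.44 (SE 0.08, adjusted p 0.012) to 343 ± 25.2 CPM in BMPR2 DELX, against 465 ± 37.4 CPM in ROSA. Calr, the chaperone calreticulin that acts as an engulfment signal at the surface, fell by 0.26 (SE 0.06, adjusted p 0.029) to 1329 ± 62.95 CPM in BMPR2 DELX, against 1592 ± 37.1 CPM in ROSA, but was not called in 6 of the 8 fits without 1 library. Thbs2 and Itgav kept their calls in all 8 such fits and lost them without both ROSA 1 and ROSA 2.

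Of 13 leukocyte checkpoint receptors, 5 were tested, with 0 higher, 1 lower and 4 not called and a median of -0.19. Cd226, which encodes the Pvr receptor DNAM-1, had 0 counts in all libraries, and Pdcd1, Ctla4 and Cd96 stayed under 1 CPM in all of them. Tigit, the inhibitory Pvr receptor, had 0.198 ± 0.106 CPM in BMPR2 DELX, against 0.463 ± 0.140 CPM in ROSA, a log2 fold change of -1.17 ± 0.41 (SE, adjusted p 0.099) on few counts.

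Havcr2, which encodes TIM-3, was the receptor that fell, by 1.32 (SE 0.20, adjusted p 0.0069). It had 14.2, 14.4, 20.6 and 14.4 CPM in BMPR2 DELX 1 to 4, against 50.6, 33.6, 45.9 and 29.1 CPM in ROSA 1 to 4. The groups did not overlap and the ROSA libraries were uneven, and the call was kept in all 8 fits without 1 library but not without both ROSA 1 and ROSA 2. Beside it, the summed leukocyte markers were 36.9 to 66.4 CPM in BMPR2 DELX and 24.9 to 36.1 CPM in ROSA, carried by Csf1r, Lyz2 and Cd68. On few counts, C1qa, C1qb, C1qc and Adgre1 were also higher in BMPR2 DELX. Itgax, Ncr1 and Ptprc were lower, Ptprc at 0.246 CPM in BMPR2 DELX, against 0.374 CPM in ROSA. The part of leukocytes in the level of Havcr2 was not tested. Lgals9, encoding the TIM-3 ligand galectin-9, was the only called gene of 9 tested other checkpoint ligands (0 higher, 1 lower, 8 not called, median 0.02). In that list 5 log2 fold changes were positive and 4 negative. By edgeR 6 had an unadjusted p below 0.05, while DESeq2 called 4 and limma voom 3. Lgals9 averaged 119.7 ± 13.1 CPM in BMPR2 DELX, against 147 ± 4.14 CPM in ROSA, a fall by 0.29 (SE 0.08, adjusted p 0.047) that was called in 1 of the 8 fits without 1 library.

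In the same list Vsir, encoding the inhibitory ligand VISTA, had 28.1, 27.4, 38.5 and 32.4 CPM in BMPR2 DELX 1 to 4, against 21.5, 16.8, 13.4 and 25.4 CPM in ROSA 1 to 4. The groups did not overlap, but the log2 fold change of 0.71 ± 0.19 (SE) had an adjusted p of 0.051 and did not pass. Vsir was called in 6 of 17 alternatives, which were DESeq2 (adjusted p 0.0043), limma voom, upper-quartile factors, the filter at 1 CPM, the unstranded column and the fit without ROSA 4. Over the 17 its adjusted p ran up to 0.25, without both ROSA 1 and ROSA 2. Of 4 tested TNF family costimulators, 0 were higher, 1 was lower and 3 were not called, with a median of -0.06. Tnfsf18, encoding the ligand of the T cell costimulatory receptor GITR, fell by 2.01 (SE 0.32, adjusted p 0.0073) to 0.480 ± 0.185 CPM in BMPR2 DELX, against 1.96 ± 0.470 CPM in ROSA, a call kept in all 8 fits without 1 library and lost without both ROSA 1 and ROSA 2. Tnfsf15, encoding TL1A, had 275 ± 60.2 CPM in BMPR2 DELX, against 328 ± 44.8 CPM in ROSA, with a log2 fold change of -0.25 ± 0.15 (SE, adjusted p 0.33).

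**Figure D4:**
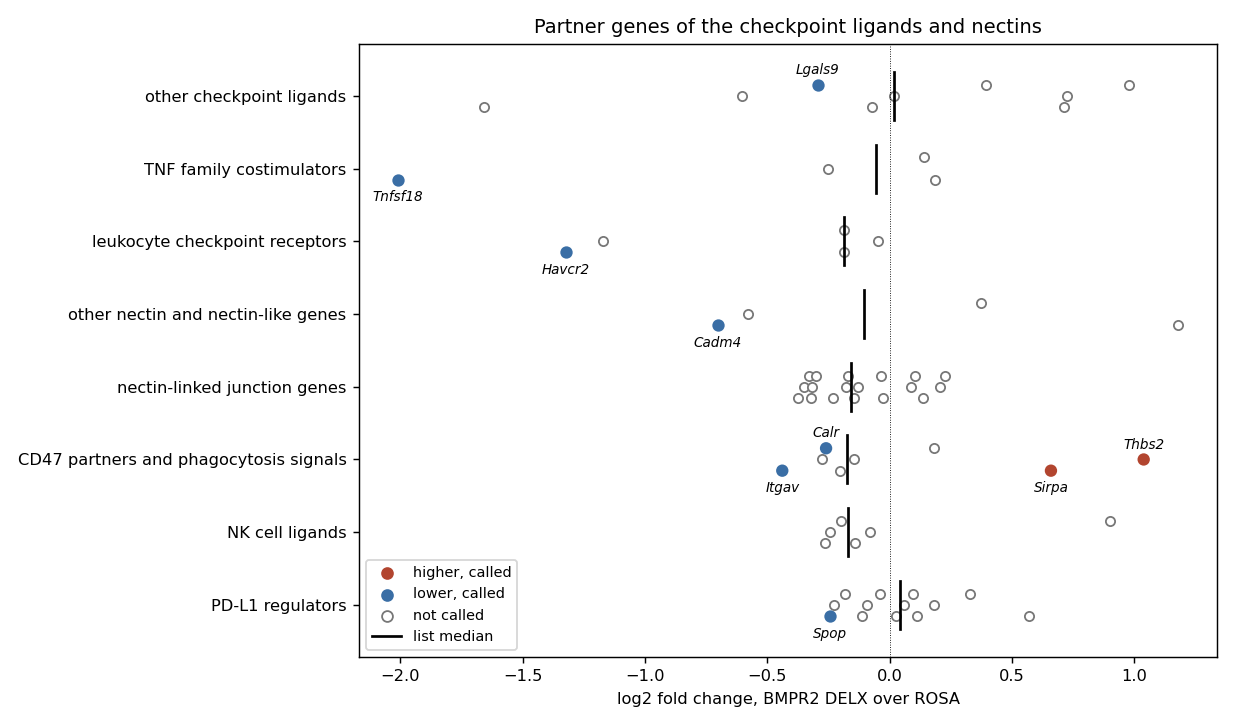
Log2 fold change of BMPR2 DELX over ROSA for 67 of the 68 tested genes of the 8 lists, with 1 point per gene, called genes filled and named, and a black line at each list's median. Called genes lie on both sides of 0, with Sirpa and Thbs2 higher and the 7 others named lower.

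Of 4 tested further nectin and nectin-like genes, 0 were higher, 1 was lower and 3 were not called, with a median of -0.10. Cadm4, a nectin-like adhesion protein, had 44.5, 53.7, 67.3 and 60.8 CPM in BMPR2 DELX 1 to 4, against 80.5, 101, 92.5 and 94.3 CPM in ROSA 1 to 4. It fell by 0.70 (SE 0.12, adjusted p 0.011) with no overlap, and was called in all 8 fits without 1 library. Without both ROSA 1 and ROSA 2 its log2 fold change was -0.71, with an adjusted p of 0.069 by edgeR. Nectin4, an epithelial nectin, had 4.59 ± 0.979 CPM in BMPR2 DELX, against 6.87 ± 1.47 CPM in ROSA, a log2 fold change of -0.58 ± 0.19 (SE, adjusted p 0.088).

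The nectin-linked junction genes, such as the afadin gene Afdn that ties nectins to actin, and catenins and cadherins, had 0 of 18 called by edgeR, with 4 at an unadjusted p below 0.05, 2 called by DESeq2 and 1 by limma voom, and a median of -0.16. The small GTPase gene Rap1b had 215 ± 24.7 CPM in BMPR2 DELX, against 268 ± 21.7 CPM in ROSA, a log2 fold change of -0.32 ± 0.09 (SE, adjusted p 0.057). Ctnna1, alpha-catenin, had 519.9 ± 35.7 CPM in BMPR2 DELX, against 610.4 ± 44.5 CPM in ROSA, a log2 fold change of -0.23 ± 0.08 (SE, adjusted p 0.085). The epithelial cadherin gene Cdh1 stayed under 1 CPM in all libraries.

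Ligands of natural killer cell receptors had 0 of 6 called by edgeR, with 1 at an unadjusted p below 0.05, 1 called by DESeq2 and 1 by limma voom, and a median of -0.17. Clec2d, a ligand of an inhibitory receptor of these cells, had 17.5 ± 4.46 CPM in BMPR2 DELX, against 9.34 ± 3.58 CPM in ROSA, a log2 fold change of 0.90 ± 0.27 (SE, adjusted p 0.069). Ulbp1, a ligand of the activating receptor NKG2D, had 35.0 ± 5.49 CPM in BMPR2 DELX, against 41.4 ± 3.81 CPM in ROSA, a log2 fold change of -0.24 ± 0.11 (SE, adjusted p 0.21). The Raet1 genes are near-identical copies and their counts are uncertain.

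Among 14 regulators of PD-L1, 1 was higher, 1 was lower and 12 were not called, with a median of 0.04, beside a level of Cd274 that was not called. Their log2 fold changes were positive for 8 and negative for 6. By edgeR 5 had an unadjusted p below 0.05, while DESeq2 called 4 and limma voom 3. Spop, a ubiquitin ligase adaptor that marks PD-L1 for breakdown, fell by 0.24 (SE 0.06, adjusted p 0.041) to 210.5 ± 12.3 CPM in BMPR2 DELX, against 249 ± 9.91 CPM in ROSA. With a single library left out, Spop was no longer called in 7 of 8 fits.

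The genes most like Cd276 and Pvr were found by the mean absolute difference of log2 CPM over the 8 libraries, each gene centred on its own mean. Cd276 and Pvr were chosen by their group difference, so genes close to them split between the groups by that choice. Nothing is read from this split or from the small distances. C1qtnf6 (0.08), the GTPase activator gene Arhgap6 (0.09) and the peptide transporter gene Tap1 (0.09) were closest to Cd276, against a median of 0.47 over all other tested genes. C1qtnf6 had 42.6, 51.6, 51.5 and 51.6 CPM in BMPR2 DELX 1 to 4, against 26.4, 27.5, 25.0 and 31.6 CPM in ROSA 1 to 4. The arrestin-domain gene Arrdc4 (0.07), the nucleotide receptor gene P2ry2 (0.08) and the tubulin-modifying Ttll3 (0.08) were closest to Pvr, against a median of 0.42. Arrdc4 had 19.4, 17.4, 21.5 and 18.8 CPM in BMPR2 DELX 1 to 4, against 33.1, 31.6, 31.8 and 29.3 CPM in ROSA 1 to 4.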

How the data were processed

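Raw counts of reads were deposited by the authors in a file for each sample, over 49671 Ensembl genes and 4 further lines for reads assigned to none, which held 14.7% to 22% of the reads and were left out. Per the submitters' processing notes STAR 2.5.2b, HTSeq and GRCm38 took part, in roles the notes do not give; the annotation release, library kit and read filters are not given in the sources used here. The opposite-strand column, with 93.4% of the stranded counts, was used. GENCODE M21 gave symbols, positions and merged exon lengths (49412 IDs matched), and RefSeq GRCm38.p6 the start windows.

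Genes were kept with filterByExpr (14887), scaled by TMM and tested with the edgeR 4.0.16 quasi-likelihood test, robust, in R 4.3.3, with BMPR2 DELX (4) against ROSA (4), and called where the p adjusted by Benjamini-Hochberg was under 0.05. The SE is the log2 fold change divided by the square root of F. In simulated data with 14763 genes kept, 31 of 67 genes planted at log2 0.5, 66 of 67 planted at 1 and 66 of 66 planted at 2 were recovered. Every simulated gene was given the median dispersion, and changes were planted only in genes averaging above 1 CPM. Recovery for scarcer or more variable genes was not simulated. Alternatives were RLE and upper-quartile factors, DESeq2 1.42.0, limma 3.58.1 voom with quality weights, no filter, at least 1 CPM in 4 libraries, the unstranded column, a replicate block, each library left out, and, added later, both ROSA 1 and ROSA 2 left out. Equal replicate numbers were not taken as pairs.

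The 10 genes and the lists were chosen with earlier results of these data known. Named are the 10 genes, Bmpr2, every called gene and the 2 of smallest p of each partner list, and the 3 genes most like Cd276 and Pvr. Marker genes, Thbs1, Cd86, Icosl, Afdn and the untested receptors named were chosen after their values were seen. A called gene of the partner lists is counted but not reported here. Figures were drawn with matplotlib 3.10.9.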

Additional observations from a re-analysis of the deposited data

Results flagged for a closer look

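In 64 groups of 4 libraries, over the named genes, a library was marked when its gap to the nearest other library took up more of the group's range than Dixon's 95% limit. Chance marks about 1 group in 20. Cd276 in BMPR2 DELX 2 was marked, at 84.8 CPM against 79.2 to 79.7 CPM in the other BMPR2 DELX libraries, a small step because those 3 lay so close together. Havcr2 in BMPR2 DELX 3 was marked at 20.6 CPM, against 14.2 to 14.4 CPM in the other BMPR2 DELX libraries. C1qtnf6 in BMPR2 DELX 1 was marked as low, at 42.6 CPM against 51.5 to 51.6 CPM in the other BMPR2 DELX libraries.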

How the results depend on the processing

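Of the 560 values of 33 tested genes under 17 alternatives, 483 kept their direction and their side of the threshold, 58 were no longer called, 15 became called and 4 changed sign. The 4 belong to Nectin1, at 0.083 without both ROSA 1 and ROSA 2 and between -0.148 and 0.048 in the fits without 1 library, with 0.03, 0.026 and 0.048 without BMPR2 DELX 1, BMPR2 DELX 2 and ROSA 1. Of the 10 genes described, 2 or 3 were called under each alternative, Cd276 and Pvr each time. Since the same libraries chose Cd276 and Pvr, nothing is read from their calls. Nectin3 also lost its call with upper-quartile factors, with no filter and without both ROSA 1 and ROSA 2, where fewer samples were fitted. Over all genes 1355 were called, against 2284 with DESeq2, 172 without both ROSA 1 and ROSA 2, and 477 to 1266 without 1 library (659, 870, 631 and 477 without BMPR2 DELX 2, BMPR2 DELX 3, ROSA 1 and ROSA 2). In the partner lists 10 were called, against 19 with DESeq2, 1 without both ROSA 1 and ROSA 2, and 6 to 10 without 1 library. With the replicate block 1245 of all genes, 3 of the 10 genes and 8 partner genes were called, but not Lgals9, Calr and Spop. The causes of these changes were not tested. The labels link same-numbered samples by the number alone, and correlations of their deviations were 0.001, 0.197, 0.234 and 0.091. Pecam1 had 289, 284, 53.5 and 146 CPM in BMPR2 DELX 1 to 4. In ROSA 1 to 4 it had 224, 317, 109 and 196.5 CPM. Whether same-numbered libraries share a batch was not tested. Pdcd1lg2 and Vtcn1 had at most 3 counts in a library, so a difference between the groups was not detectable at this depth.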
